A study of Mus musculus with 6 samples.

Results

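The 10 imprinted genes of this report are H19, Igf2, Igf2r, Dlk1, Meg3, Ndn, Grb10, Plagl1, Mest and Peg3. They were followed in sorted mouse haematopoietic stem cells of controls and of mice with floxed beta-catenin alleles. The genes were chosen by name, as genes linked to quiescent stem cells, with earlier results of these data known. Their probe sets (groups of probes read as 1 value) were those that the array annotation gives to exactly 1 gene. All 10 genes were on the array, with 144 of its 212097 probe sets of 1 gene. None of the 144 was listed under an older symbol. The study used 6 arrays of bone marrow cells, 3 from controls and 3 from mice with floxed beta-catenin and the vav-Cre transgene, called floxed arrays here. The cells were sorted as KLSCD34-, which is Kit positive, negative for lineage markers, Sca-1 positive and CD34 negative, and the biotin-labelled cRNA came from 100 ng of RNA. Vav-Cre drives recombination in blood-forming cells; the alleles and Cre status of the controls, and the age and strain of all the mice, are not given in the sources used here. Whether the 3 arrays of a group came from separate mice or pools is not in the labels either, so p-values here measure only the spread among these samples, which may be technical. A log2 difference is always floxed minus control.

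At an imprinted gene, DNA methylation set in the germ line of a parent governs whether the maternal or the paternal copy is silent. The family is known for control of growth. In the mouse, Igf2, Dlk1, Plagl1, Mest, Peg3 and Ndn are known as paternally expressed, and H19, Meg3, Igf2r and, in most tissues, Grb10 as maternally expressed. In long-term stem cells of the bone marrow several of these genes are known to be more active than in the progenitors they give rise to, and the H19 and Igf2 locus and the Dlk1 and Meg3 locus have been tied to quiescence. The arrays read total RNA and do not tell the parental copies apart. Fewer cells that express a gene and less of its RNA per cell cannot be told apart in such samples.

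The start regions of a few members are shown because methylation of CpG pairs is the mark that imprints these genes, and because the receptor gene Igf2r and the adaptor gene Grb10 gave most of the usable probe sets. A start region is not always the imprinted one: at Igf2r the methylated control region lies in an intron. RefSeq (GRCm38.p6) held 16 start sites for 9 of the members, and H19 had none in the table. In the 250 bases before each start, the median number of CpG pairs was 9 for the members and 6 over all 32851 start sites, and 12 of the 16 windows held more than 6, which 46.3% of all windows did. The count differed between members, from 0 at the Meg3 start further along the gene to 40 at the first Grb10 start. The first Grb10 start lay at the 98.9th percentile of all windows, Igf2r with 27 CpG pairs at the 92.4th, and the other Grb10 start and Peg3 each with 8 at the 59.7th. Each window reads 5′ to 3′ along the gene and ends at the base before the start, with CpG pairs in capitals. The windows are chr17:12769707-12769956 for Igf2r, chr11:12037421-12037670 and chr11:12027972-12028221 for Grb10, and chr7:6730420-6730669 for Peg3, all on the minus strand.
Igf2r: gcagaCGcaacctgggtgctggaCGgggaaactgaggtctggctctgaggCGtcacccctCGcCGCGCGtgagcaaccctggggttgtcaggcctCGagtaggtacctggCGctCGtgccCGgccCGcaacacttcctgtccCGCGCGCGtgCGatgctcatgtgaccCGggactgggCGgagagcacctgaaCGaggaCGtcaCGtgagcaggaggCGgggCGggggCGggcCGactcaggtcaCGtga
Grb10, first start: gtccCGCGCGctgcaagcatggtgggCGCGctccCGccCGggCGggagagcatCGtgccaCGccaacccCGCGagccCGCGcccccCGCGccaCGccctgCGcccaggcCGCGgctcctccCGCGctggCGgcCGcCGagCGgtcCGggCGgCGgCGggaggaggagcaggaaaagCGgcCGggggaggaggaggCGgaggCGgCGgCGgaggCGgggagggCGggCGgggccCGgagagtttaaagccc
Grb10, other start: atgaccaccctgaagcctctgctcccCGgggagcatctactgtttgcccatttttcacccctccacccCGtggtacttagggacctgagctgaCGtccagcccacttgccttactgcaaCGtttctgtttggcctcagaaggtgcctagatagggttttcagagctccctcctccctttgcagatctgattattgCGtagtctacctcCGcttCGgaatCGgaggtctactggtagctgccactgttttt
Peg3: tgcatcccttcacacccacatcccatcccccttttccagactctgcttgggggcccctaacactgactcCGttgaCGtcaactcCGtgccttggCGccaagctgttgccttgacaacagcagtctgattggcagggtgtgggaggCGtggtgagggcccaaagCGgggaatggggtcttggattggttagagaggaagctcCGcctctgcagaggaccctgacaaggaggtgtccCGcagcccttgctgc

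Beta-catenin acts on genes through DNA-binding factors of the TCF/LEF family, whose core motif is CTTTGA. That motif was searched on both strands of the 250 bases, where it reads TCAAAG on the opposite strand, and 13.8% of all windows held it. Among the members it was in 2 of 16 windows, the first Igf2 start and the first Meg3 start. These matches are shown with 20 bases on either side and the motif in capitals. They lie at chr7:142666998-142667043 on the minus strand for Igf2 and at chr12:109540924-109540969 on the plus strand for Meg3. A match is a description of the letters and not a site of binding.
Igf2: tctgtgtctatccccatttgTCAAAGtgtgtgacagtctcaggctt
Meg3: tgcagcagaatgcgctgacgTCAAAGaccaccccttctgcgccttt

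The values are log2 expression per probe set as deposited, between 2.44 and 14.53, with array medians of 7.56 to 7.65. Ctnnb1, which encodes beta-catenin, fell on 5 of its 16 tested probe sets (log2 fold changes of −6.90 to −2.51, limma adjusted p of 1.19e-05 to 0.00137) and did not pass on the others, and the annotation does not place any of them on exons. Over genes, control arrays correlated with one another at 0.880 to 0.934 and floxed arrays at 0.962 to 0.972, so the controls varied more. In the lists of marker genes 0 genes passed. Of 15 stem cell genes 13 were tested. Among the brightest, the stem cell factor receptor gene Kit read 11.84 ± 0.06 (SD, n = 3) in the control group. The transcription factor gene Hlf read 11.65 ± 0.17 (SD, n = 3) and Ly6a 11.29 ± 0.52 (SD, n = 3) there. The dimmest tested gene of the list, Slamf1, read 8.23, 7.99 and 7.79 on control arrays. That list averaged 9.61 to 9.87 on control and 9.71 to 9.90 on floxed arrays. The stroma and endothelium list, cell types in which several imprinted genes are also active, averaged 8.50 to 8.89 and 8.64 to 8.76. All list averages here use only probe sets with a mean of at least 7.60 over the 6 arrays. A list of silent genes could thus not read far below that. The averages do not show how much of a cell type was present. Cdh5 of the stroma and endothelium list, for example, kept 1 of 12 probe sets. All 12 markers of mature granulocytes and macrophages lay lower in floxed arrays (median log2 fold change −0.44), where 45.8% of all genes did. Csf1r (−0.0013) and Adgre1 (−0.016) of that list hardly differed, and for 0 of the 12 were the groups apart. Their average was 9.05 to 10.09 on control and 8.95 to 9.71 on floxed arrays. The granule protein genes Ngp (−0.88) and Mmp8 (−1.03) had the smallest unadjusted limma p of the list, 0.00892 and 0.0164, and did not pass. Ngp read 12.32, 12.03 and 11.19 on control and 10.91, 10.56 and 11.43 on floxed arrays. Of 9 erythroid and megakaryocyte markers 8 lay lower, and the list averaged 9.66 to 9.89 on control and 9.48 to 9.89 on floxed arrays. The 7 B cell markers averaged 8.05 to 9.78 on control and 8.72 to 9.39 on floxed arrays, and the 6 of T and NK cells 8.35 to 8.81 and 8.09 to 8.64. Their part in the values of the imprinted genes was not tested.

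No imprinted gene passed the test between the groups. Igf2r and Grb10 had most of their probe sets above the filter on dim ones, while H19 had none and Igf2, Plagl1, Mest and Peg3 had few. In limma, with Benjamini-Hochberg adjustment, 0 of the 9 genes that could be tested passed (smallest adjusted p = 0.999), and 0 had an unadjusted p under 0.05. Over all 14586 genes 0 passed, which is 0%, and 540, which is 3.70%, had an unadjusted p under 0.05. Of the 9 members, 4 lay higher and 5 lower in floxed arrays, beside 54.2% and 45.8% of all genes. Their log2 differences ran from −0.36 to 0.21 with a median of −0.031, where the median of all genes was 0.018. All 9 had a 95% confidence interval within 1 log2 of 0, and the bound farthest from 0 was 0.79, that of Peg3 on the lower side. In the same fit the gene value of Ctnnb1, with a log2 difference of −0.88, did not pass either (limma adjusted p = 0.667). That value is a median over 16 kept probe sets, of which 5 passed singly. With the mean of probe sets the difference was −1.64 and passed (limma adjusted p = 0.000269). A fall on part of the probe sets of a gene can thus go uncalled in the median with 3 arrays a group.

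A gene was tested where a probe set of it had a mean over the 6 arrays of at least 7.60, the median of all probe sets. By that filter 66 of the 144 member probe sets were kept. Grb10 kept 18 of 21 and Igf2r 35 of 48. Dlk1 kept 3 of 6, Meg3 2 of 5, Plagl1 2 of 15, Mest 2 of 13, Peg3 2 of 17 and Igf2 1 of 11. The only probe set of Ndn was kept. H19 kept 0 of 7. Detection calls were not used here, so the 1182 probe sets of olfactory receptor genes, most of which are silent outside the nose, serve to describe what silent genes read. Their median was 4.77 and their 95th percentile 6.43, and 10 of them (0.846%) reached the filter. Of the member probe sets 103 lay above that percentile, as did 68.4% of all probe sets. They included 4 of 7 for H19, 9 of 11 for Igf2, 5 of 15 for Plagl1, 5 of 13 for Mest and 7 of 17 for Peg3. The brightness of a probe depends on its own sequence, so these values describe each probe set and give no order of expression between the genes.

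**Figure D1:**
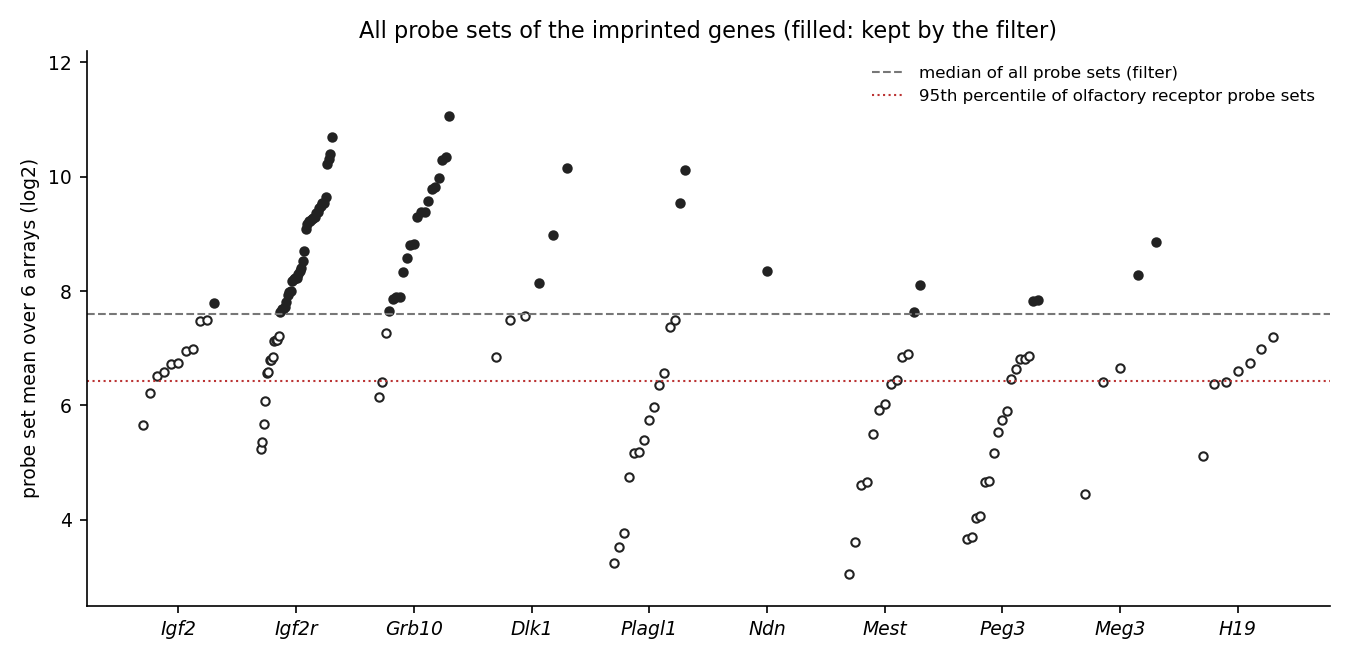
Mean over the 6 arrays (log2) of each of the 144 probe sets of the 10 imprinted genes, sorted within a gene; filled points were kept by the filter (dashed line, 7.60) and the dotted line is the 95th percentile of olfactory receptor probe sets (6.43). Most points of Igf2r and Grb10 lie above the dashed line and none of the 7 points of H19 does.

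The insulin-like growth factor axis holds a ligand, a receptor that removes it and an adaptor that damps its signal, and none of the 3 passed. Igf2, the growth factor, rested on 1 probe set, which read 8.32, 7.71 and 7.67 on control arrays and 7.59, 7.44 and 7.98 on floxed arrays. The groups overlapped, with control replicate 1 the highest (log2 difference −0.23, SE 0.24, limma adjusted p = 0.999). Over all 11 Igf2 probe sets the median was 6.87 ± 0.22 (SD, n = 3) in the control group and 6.86 ± 0.10 (SD, n = 3) in the floxed group.

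Igf2r encodes the receptor that takes up IGF2 for degradation and carries lysosomal enzymes. Its median over the 35 kept probe sets was 8.87, 8.73 and 8.89 on control arrays and 8.63, 8.85 and 9.07 on floxed arrays. The floxed arrays spanned all 3 controls (log2 difference 0.022, SE 0.16, limma adjusted p = 0.999). Taken singly, 24 of the 35 probe sets (68.6%) lay lower in floxed arrays, where 41.2% of all 120788 kept probe sets did. Probe sets of a gene read the same RNA and are not replicates. With the mean of the 35 in place of the median the log2 fold change was −0.14 (SE 0.15, limma adjusted p = 0.998), from 9.02, 9.03 and 8.74 on control arrays and 8.67, 8.67 and 9.02 on floxed arrays. The sign of the Igf2r difference thus turned with the summary, and it was also negative with quantile normalization (−0.019) and equal array medians (−0.0088).

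Across Igf2r the floxed arrays did not move together. Floxed replicate 3 was the highest of the 6 arrays on 9 of the 35 probe sets and the lowest on 1, while floxed replicates 1 and 2 were the lowest on 11 and 8. The controls split as well. Control replicates 1 and 2 were the highest on 9 and 12 probe sets, and control replicate 3 was the lowest on 7. On 3 of the 35 (8.57%) every floxed array lay below every control, where 2.98% of all kept probe sets did so. The widest gap of the 3 was on probe set 10447802, which read 9.63, 9.68 and 9.58 on control and 9.34, 9.32 and 9.35 on floxed arrays (log2 difference −0.29, SE 0.17, limma adjusted p = 0.975). The lowest p of an Igf2r probe set came from 10447831, with groups that overlapped (8.55, 8.10 and 8.93 against 7.54, 8.24 and 8.01; log2 difference −0.60, SE 0.28). The brightest, 10447832, read 11.01, 10.40 and 10.54 against 10.64, 10.57 and 11.04, with a log2 fold change of 0.10.

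Grb10 encodes an adaptor that binds insulin and IGF receptors and restrains growth. Its median over 18 kept probe sets was 9.20, 9.53 and 9.29 on control arrays and 9.16, 8.96 and 9.52 on floxed arrays. The lowest array and nearly the highest were thus both floxed (log2 difference −0.13, SE 0.17, limma adjusted p = 0.999). Floxed replicate 3 was the highest array on 14 of the 18 probe sets and floxed replicate 2 the lowest on 10. Without floxed replicate 2 the difference was 0.00053. The smallest p among the kept member probe sets was that of 10384414 of Grb10, which read 8.51, 8.49 and 8.81 on control and 7.92, 7.85 and 8.46 on floxed arrays (log2 difference −0.52, SE 0.24, limma unadjusted p = 0.0548 and adjusted p = 0.975). Its groups did not overlap. The brightest Grb10 probe set, 10384401, read 11.39, 10.90 and 10.90 against 10.97, 10.87 and 11.32.

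**Figure D2:**
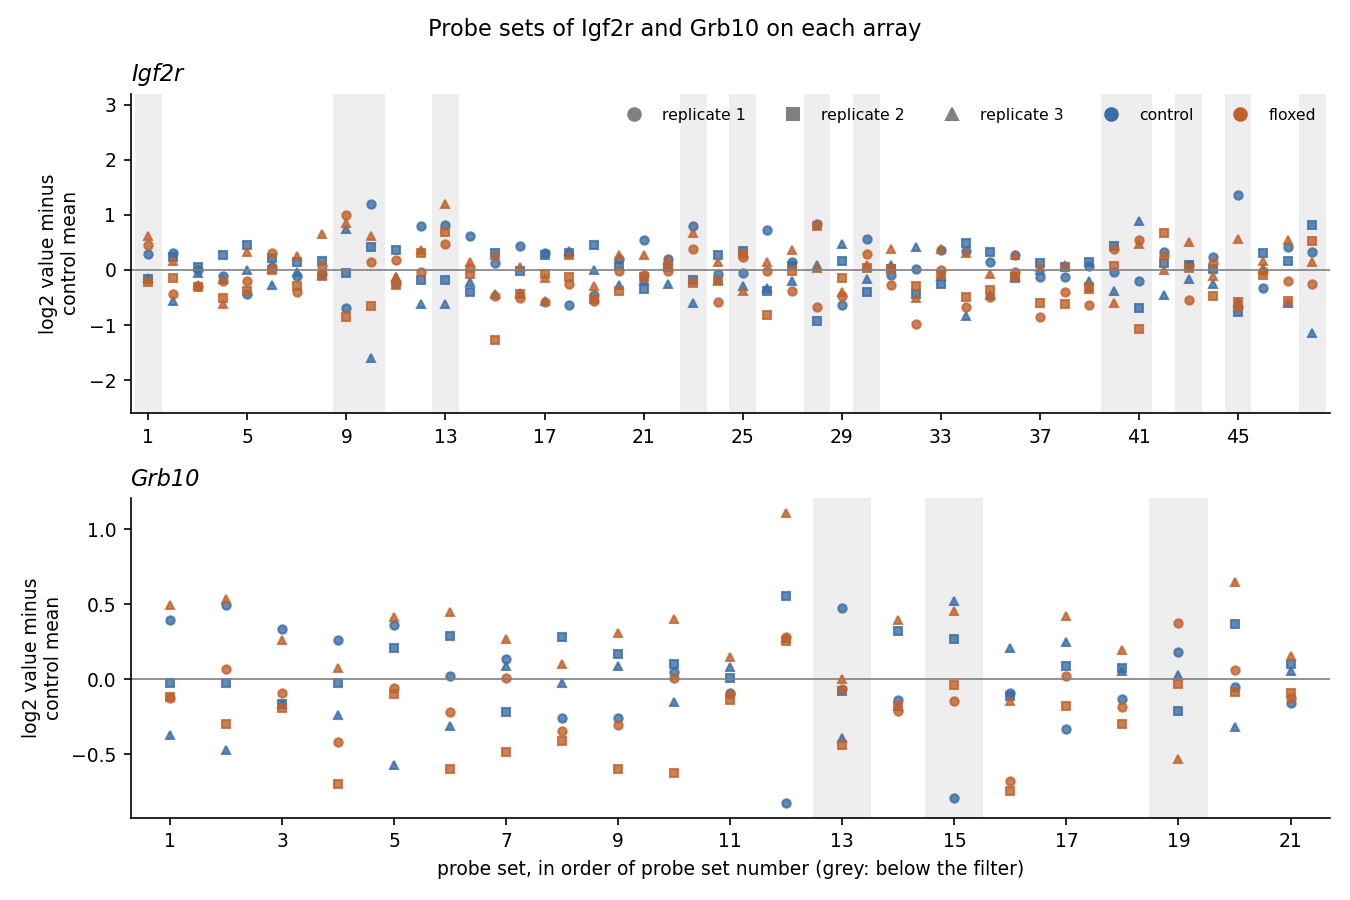
Log2 value of each probe set of Igf2r (48) and Grb10 (21) on each array, less the control mean of that probe set, in order of probe set number; colours mark the groups, shapes the replicates, and grey bands the probe sets below the filter. Floxed replicate 3 (triangles) lies highest on 14 of the 18 kept Grb10 probe sets, and floxed replicate 2 (squares) lowest on 10.

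Dlk1 encodes a membrane protein with EGF-like repeats that is related to Notch ligands. Its median over 3 kept probe sets was 8.55, 9.32 and 8.95 on control arrays and 8.80, 9.18 and 9.03 on floxed arrays, all floxed values inside the control range (log2 difference 0.064, SE 0.20, limma adjusted p = 0.999). Its brightest probe set, 10398320, read 10.09, 10.11 and 9.86 against 10.22, 10.45 and 10.15. Every floxed array lay above every control on it, by a log2 fold change of 0.26 (SE 0.17, limma adjusted p = 0.975), and 6.46% of all kept probe sets separated in that direction. Without control replicate 1 the gene value was −0.13.

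Plagl1, Peg3 and Ndn encode nuclear proteins. Plagl1 is a zinc finger transcription factor known to regulate other imprinted genes. It had the widest range of the tested members, 1.23 log2, with 9.16, 10.06 and 10.39 on control arrays and 9.91, 9.88 and 9.57 on floxed arrays. Both the lowest and the highest array were controls, and the groups overlapped (log2 difference −0.079, SE 0.26, limma adjusted p = 0.999). The control SD of 0.64 was larger than the floxed SD of 0.18. Its 2 kept probe sets moved alike, 10361782 with 9.58, 10.37 and 10.46 against 10.23, 10.08 and 10.001 and 10361772 with 8.73, 9.75 and 10.31 against 9.58, 9.68 and 9.15. Without control replicate 3 the difference was 0.18. These Plagl1 values rest on 2 of 15 probe sets. Over all 15 the median was 5.80 ± 0.32 (SD, n = 3) in the control group and 5.60 ± 0.07 (SD, n = 3) in the floxed group. Both means lay below the 6.43 taken from olfactory receptor probe sets. The range was then 0.62 log2, narrower than the 0.84 of Peg3 with no filter, and the log2 fold change was −0.20.

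The genes whose values over the 6 arrays were most like those of Plagl1, among 14585 others and after each gene was centred on its mean, were Bicdl1, Kcnc1 and Iqsec3. Their root mean square differences from it were 0.042, 0.055 and 0.058 log2. All 3 were lowest on control replicate 1 and highest on control replicate 3, as Plagl1 was. They were picked for that likeness, so the shared pattern and the like differences are no separate result. How close a match so many genes would give without any link was not tested. The log2 fold changes were −0.14 for Bicdl1, −0.16 for Kcnc1 and −0.12 for Iqsec3, and none passed.

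Peg3, a zinc finger protein tied to growth and maternal behaviour, was the tested member with the largest difference. It read 7.80, 7.99 and 8.29 on control arrays and 7.74, 7.71 and 7.53 on floxed arrays. Every floxed array lay below every control, by a log2 fold change of −0.36 (SE 0.20, 95% confidence interval −0.79 to 0.070, limma adjusted p = 0.999). The exact permutation test, two-sided, reached p = 0.1, below which 3 against 3 arrays cannot go. It was the 1 member of 9 (11.1%) whose groups did not overlap, where 8.44% of all genes did so and 2.87% did so on the lower side. The value rests on 2 of 17 probe sets. Over all 17 the median was 5.68 ± 0.32 (SD, n = 3) in the control group and 5.88 ± 0.26 (SD, n = 3) in the floxed group, and its sign was the opposite (log2 fold change 0.20). Neither kept probe set passed singly, with log2 fold changes of −0.46 for 10559815 and −0.27 for 10559810.

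Ndn encodes necdin, a protein known to restrain cell division in neurons and in stem cells. Its probe set read 8.60, 7.96 and 8.17 on control arrays and 8.33, 8.33 and 8.71 on floxed arrays. All 3 floxed arrays lay above the control mean, but the groups overlapped (log2 difference 0.21, SE 0.20, limma adjusted p = 0.999).

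Mest, which encodes a hydrolase-like protein of mesodermal tissue, read 7.47, 7.75 and 8.12 on control arrays and 7.95, 7.91 and 7.99 on floxed arrays. The floxed values were close together and inside the control range (log2 difference 0.17, SE 0.20, limma adjusted p = 0.999). On the brighter of its 2 kept probe sets, 10537064, the floxed arrays read 8.14, 8.13 and 8.39 and the controls 8.08, 8.003 and 7.87, which did not overlap (log2 fold change 0.24, limma adjusted p = 0.975). Over all 13 Mest probe sets the median was 6.06 ± 0.05 (SD, n = 3) in the control group and 6.16 ± 0.24 (SD, n = 3) in the floxed group, below the 95th percentile of olfactory receptor probe sets.

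The long noncoding RNAs Meg3 and H19 are the maternally expressed partners of Dlk1 and Igf2, and neither passed. Meg3 read 8.17, 8.54 and 9.05 on control arrays and 8.58, 8.82 and 8.27 on floxed arrays, the floxed values again within the control range (log2 difference −0.031, SE 0.23, limma adjusted p = 0.999). Over all 5 Meg3 probe sets the log2 fold change was 0.30 (SE 0.20, limma adjusted p = 0.915), against −0.031 on the 2 kept ones. On those 2 the sign also turned with array weights (0.049), without control replicate 3 (0.20) and without floxed replicate 3 (0.11). Its kept probe sets differed in sign, with log2 differences of 0.22 for the brightest, 10398330 (8.45, 8.69 and 9.11 against 9.14, 9.15 and 8.59), and −0.28 for 10398328.

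H19 did not enter the main test. Over its 7 probe sets the median was 6.52, 6.62 and 6.63 on control arrays and 6.41, 6.63 and 6.64 on floxed arrays. The means were 6.59 ± 0.06 (SD, n = 3) and 6.56 ± 0.13 (SD, n = 3), and with every probe set of the array tested the log2 fold change was −0.033 (SE 0.17, 95% confidence interval −0.41 to 0.34, limma adjusted p = 0.990). The brightest H19 probe set, 10569340, read 7.06, 7.03 and 7.28 against 7.23, 6.94 and 7.68. These values lie near the upper end of those of olfactory receptor genes, and whether they are above background cannot be told from them.

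**Figure D3:**
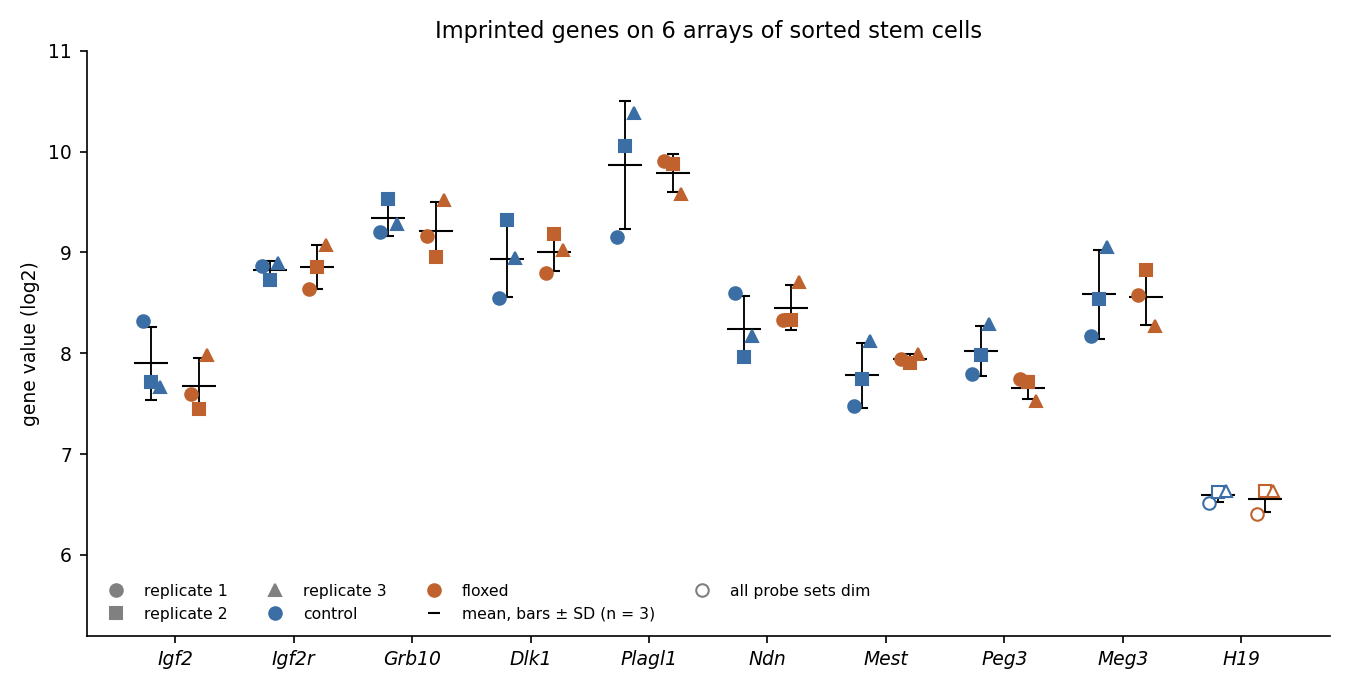
Gene value (log2, median over kept probe sets) of each imprinted gene on the 3 control and 3 floxed arrays, with the mean and SD of each group; the open points of H19 are medians over its 7 dim probe sets. The groups overlap for every gene shown but Peg3, whose controls (7.80 to 8.29) all lie above the floxed arrays (7.53 to 7.74).

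**Figure D4:**
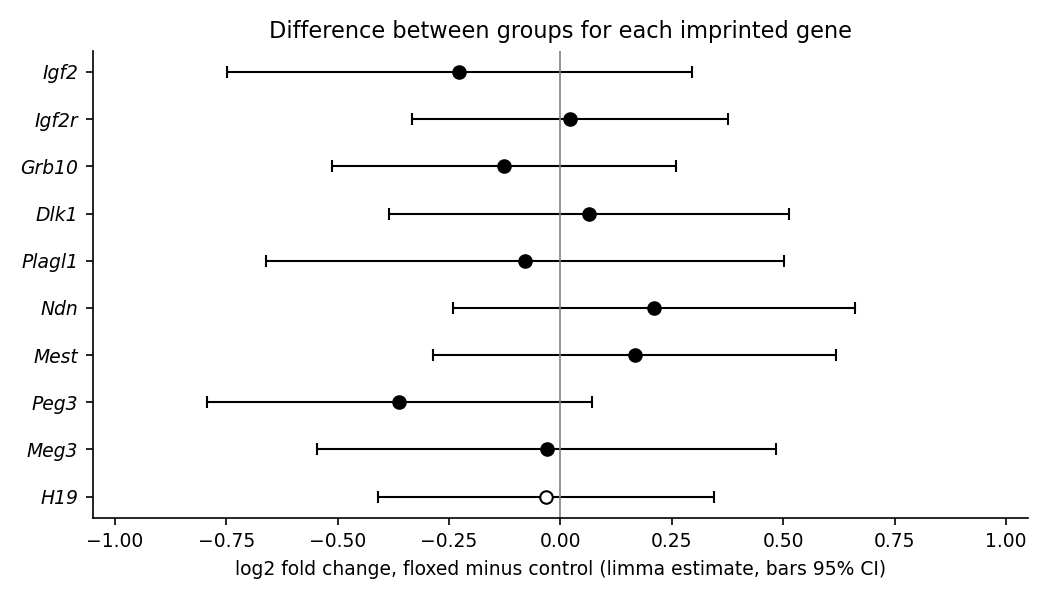
Difference between floxed and control arrays for each imprinted gene (limma estimate on the log2 scale with its 95% confidence interval), the open point for H19 from the test of every probe set. The points run from −0.36 for Peg3 to 0.21 for Ndn and every interval includes 0.

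Taken over single probe sets, 0 of the 66 kept member probe sets passed in limma (smallest adjusted p = 0.975) and 0 had an unadjusted p under 0.05. Of all 120788 kept probe sets 5 passed (0.00414%), all of Ctnnb1, and 4.35% had an unadjusted p under 0.05. Groups did not overlap on 6 of the 66 (9.09%), 4 of them lower and 2 higher in floxed arrays, beside 9.45% of all kept probe sets. The 4 were those of Igf2r (3) and Grb10 (1), and the 2 those of Dlk1 and Mest. With every probe set of the array tested, 1 of the 144 had an unadjusted limma p under 0.05. It was a dim one of Mest, 10537074, with a mean of 3.62 and a limma adjusted p of 0.976. The log2 fold changes of the 66 ran from −0.60 to 0.55. In all, 42 of 66 (63.6%) lay lower, against 41.2% of all kept probe sets. Without the 35 of Igf2r it was 18 of 31 (58.1%). Of those 31, Grb10 held 18, with 11 lower. Probe sets of a gene are not replicates, so these shares rest largely on Igf2r and Grb10. By gene value, 5 of the 9 tested members lay lower, beside 45.8% of all genes.

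Other genes known as imprinted in the mouse, from a list of 52, gave 32 that could be tested. None passed (smallest limma adjusted p = 0.999), 3 had an unadjusted p under 0.05, 20 lay higher and 12 lower in floxed arrays, and the median log2 fold change was 0.059. The organic cation transporter gene Slc22a3, a neighbour of Igf2r, had 10.35, 10.32 and 10.15 on control and 10.80, 10.52 and 10.51 on floxed arrays, which did not overlap (log2 difference 0.34, SE 0.13). It was 0.072 with the mean of its 10 kept probe sets and 0.17 with no filter. Cd81, a tetraspanin gene, had 12.06, 12.14 and 12.04 against 11.71, 11.72 and 12.04 (log2 difference −0.26, SE 0.11). The calcitonin receptor gene Calcr had −0.73 (SE 0.31) on the 1 of its 19 probe sets that was kept, with groups that overlapped, −0.21 with no filter, −0.40 without control replicate 3 and −0.48 without floxed replicate 1. Of the brightest, H13, which encodes a signal peptide peptidase, had 11.68, 11.62 and 11.55 against 11.38, 11.47 and 11.54 (log2 fold change −0.16). Gnas, which encodes the stimulatory G protein alpha subunit, had −0.17. Groups did not overlap for 4 of the 32 genes, beside 8.44% of all genes. Slc22a3 and Ube3a lay higher and Cd81 and H13 lower in floxed arrays.

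Of 18 genes of IGF and insulin signalling, 15 were tested and none passed or had an unadjusted p under 0.05. With 5 higher and 10 lower, their median log2 fold change was −0.039. Igf1r, the receptor that signals for IGF1 and IGF2, read 10.32, 10.56 and 10.72 on control and 10.74, 10.51 and 10.65 on floxed arrays (log2 difference 0.10, SE 0.14). The ligand gene Igf1 had −0.30 (SE 0.19). The IGF-binding protein genes Igfbp5, Igfbp2 and Igfbp4 had −0.31, 0.30 and 0.12, and Hmga2, a chromatin protein gene of fetal stem cells, had −0.0075.

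Of 12 genes that set or keep imprints all were tested and none passed. The median log2 fold change was 0.10, with 10 higher and 2 lower, and 1 had an unadjusted p under 0.05. That gene was Zfp445, a zinc finger protein that binds imprint control regions, with 9.07, 9.31 and 9.22 on control and 9.69, 9.70 and 9.38 on floxed arrays, which did not overlap (log2 difference 0.39, SE 0.15, limma adjusted p = 0.999). It was 0.074 with the filter at the 75th percentile. Its cofactor gene Trim28 had 0.020 (SE 0.14). The maintenance methyltransferase gene Dnmt1 read 11.24, 11.13 and 11.19 against 11.47, 11.16 and 11.20 (log2 fold change 0.091), and its partner Uhrf1 had −0.056. Ctcf, the insulator protein that binds the unmethylated control region between H19 and Igf2, had 0.18 (SE 0.13), and the chromatin gene Arid4a had 0.22 (SE 0.17).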

How the data were processed

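The authors deposited log2 expression values of 6 arrays, and the submitters' processing notes name MAS5 with no role or version. Other steps are not given in the sources used here, and the log base was taken from the range of the values. No further normalization was applied. The platform annotation gave 1 gene to 212097 of 241576 probe sets, several to 4475 and none to 25004. Symbols were updated through RefSeq (GRCm38.p6), with 17621 of 20416 current, 2742 updated and 53 unmatched. Probe sets with a mean of at least 7.60 over the 6 arrays, the median, were kept; a gene's value was the median of its kept probe sets. Genes, and separately all kept probe sets, went through lmFit and eBayes (trend on) of limma 3.58.1, run in R 4.3.3, two-sided, with Benjamini-Hochberg adjustment and a threshold of 0.05. The R package data.table was version 1.17.8. The steps were tested on simulated data. Differences are floxed minus control. The number of arrays limits the precision.

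Members and lists were chosen with earlier results of these data known. Named were all members with their brightest probe set and that of smallest p, the 3 genes of smallest p and the 3 brightest of each other imprinted or IGF list, Ctnnb1, and the 3 genes most like the member of widest range; other probe sets in the text were picked with their values in view. The 15 alternatives covered the scaling (quantile, equal medians), the filter (none, or the 75th percentile), the mean of a gene's probe sets, the eBayes variant (no trend, robust), array weights, a replicate block, and leaving out each array. The main fits did not pair arrays by the numbers in their titles, and whether those numbers mark pairs is not known.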

Additional observations from a re-analysis of the deposited data

How the results depend on the processing

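No member was called under any of the 15 alternatives, and no member probe set under the 14 that apply to probe sets; the smallest limma adjusted p of a member was 0.139, with array weights. Over all genes the count called was 2 with no filter, 1 with the mean of probe sets (Ctnnb1) and 404 with array weights, against 0. It was 0 to 2 when 1 array was left out (2 without control replicate 1). Over all probe sets the count was 0 with the filter at the 75th percentile, against 5. Those 5, all of Ctnnb1, had means of 7.89 to 9.18, below that cut of 9.20, so they were not tested there. Whether arrays of the same replicate number belong together cannot be told from 3 arrays a group. Deviations from the group means correlated between same-numbered arrays at r of 0.198, −0.0037 and −0.243. Of 3 controls, 1 correlated best with its own number. With the replicate block 0 genes, 0 members and 5 probe sets were called.

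Signs of small differences turned, and the cause was not tested. With no filter, log2 fold changes were −0.014 for Dlk1, −0.16 for Igf2r, 0.30 for Meg3, 0.20 for Peg3, 0.048 for Bicdl1, 0.066 for Hmga2, −0.22 for Igfbp2, 0.066 for Iqsec3 and 0.12 for Uhrf1. At the 75th percentile they were −0.21 for Igf2r, 0.065 for Gnas and 0.18 for Igf1. With the mean of probe sets they were −0.14 for Igf2r, 0.028 for H13 and 0.14 for Uhrf1. Array weights gave −0.19 for Dlk1, 0.049 for Meg3, 0.012 for Hmga2, −0.0051 for Igfbp4 and −0.17 for Trim28. Quantile normalization and equal medians gave −0.019 and −0.0088 for Igf2r and −0.0078 and −0.011 for Trim28. When 1 array was left out, the range was −0.13 to 0.25 for Dlk1, −0.28 to 0.00053 for Grb10, −0.088 to 0.13 for Igf2r, −0.24 to 0.20 for Meg3 and −0.43 to 0.18 for Plagl1. It was −0.51 to 0.097 for Bicdl1, −0.48 to 0.18 for Iqsec3, −0.50 to 0.074 for Kcnc1, −0.0061 to 0.15 for Dnmt1, −0.099 to 0.049 for Hmga2, −0.0070 to 0.19 for Igf1r, −0.13 to 0.13 for Trim28 and −0.16 to 0.026 for Uhrf1. Igf2, Mest and Ndn kept their sign under every alternative that gave a value, and Peg3 under all but no filter. Their sizes moved when 1 array was left out, from −0.38 to −0.018 for Igf2, 0.013 to 0.34 for Mest, 0.069 to 0.39 for Ndn and −0.48 to −0.23 for Peg3. Signal over background is not known for the dim members, since detection calls were not used.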
